A study of Homo sapiens with 6 samples.

Results

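The accessible chromatin round FKBP5 was described from DNase-seq peaks in A549, an established cell line from a human lung adenocarcinoma. All peaks of 6 libraries between positions 35490000 and 35760000 of chromosome 6 (hg19) were taken, a window that holds FKBP5, which lies on the minus strand at about chr6:35541362-35696397, and its flanks. Peaks that shared at least 1 bp were merged across libraries, which gave 19 regions holding 78 peaks, of 81216 regions and 357761 peaks in all. In DNase-seq, nuclei are digested lightly with the enzyme DNase I, which reaches open chromatin most easily, and the cut ends are sequenced, so a peak marks a stretch that the enzyme cut more often than its surroundings. The cells had been treated for 1 h with dexamethasone at 100 nM, a glucocorticoid drug and receptor agonist, or with 0.02% ethanol, its vehicle. Each treatment had 3 libraries, numbered 1 to 3. The comparison asks where accessibility at the gene differs between hormone and vehicle. The measurement is of bulk cells, so more cells with an open site and more cutting per cell cannot be told apart.

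FKBP5 encodes FKBP51, a co-chaperone of HSP90. FKBP51 in the HSP90 complex lowers the affinity of the glucocorticoid receptor for hormone, and the gene is itself a standard target that glucocorticoids induce in many tissues, the lung among them, which closes a negative feedback loop on the receptor. The activated receptor binds DNA elements in the introns and flanks of the gene, often far from its start, and mostly enters chromatin that is already open, with a smaller share of sites that open on hormone.

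FKBP5 has more than one start. The RefSeq table used here (GRCh38.p14) holds 2 promoters of FKBP5, both on the minus strand and 39.7 kb apart. The 250 bases before each start are shown 5′ to 3′ because the strongest peaks of the gene lay about as far from its start as these starts lie apart, and capitals mark CG pairs, the dinucleotide that is dense in CpG-island promoters.
First start, chr6:35728584-35728833: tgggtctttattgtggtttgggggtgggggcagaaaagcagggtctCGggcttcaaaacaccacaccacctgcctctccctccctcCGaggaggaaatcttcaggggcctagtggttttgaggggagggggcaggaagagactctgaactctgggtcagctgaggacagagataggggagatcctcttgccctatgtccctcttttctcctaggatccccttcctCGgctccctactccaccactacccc
Second start, chr6:35688916-35689165: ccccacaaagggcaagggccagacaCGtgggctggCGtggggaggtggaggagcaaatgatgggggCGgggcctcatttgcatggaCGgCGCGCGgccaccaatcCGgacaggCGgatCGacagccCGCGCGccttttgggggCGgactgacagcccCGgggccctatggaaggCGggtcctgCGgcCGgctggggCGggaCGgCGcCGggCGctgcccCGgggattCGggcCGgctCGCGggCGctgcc
The first holds 3 CG pairs and 57.6% G or C, beside medians of 11 pairs and 58% over all promoters of the table. The second is rich in them, with 29 CG pairs and 74.8% G or C, and has more pairs than 85.9% of promoters. Neither stretch holds, on either strand, a match to the glucocorticoid receptor element in the form searched, to the AP-1 element TGANTCA, to the forkhead element TGTTTAC or to the CCAAT-enhancer element TTGCNNAAT. These motifs occur in 0.328%, 6.57%, 2.98% and 2.39% of the table's 35116 promoters of the same length, so few promoters hold any of them. In the order of protein-coding genes in RefSeq the neighbours are TULP1 and TEAD3 beyond the end of FKBP5 and ARMC12, CLPSL2 and CLPSL1 beyond its start. Sequence and annotation of hg19 were not used here, so the regions are given by hg19 position and by their distance from the gene start at 35696397, and not by exon or intron. That hg19 start was not mapped to a start of the RefSeq table.

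More peaks were called at FKBP5 with dexamethasone. The window held 19, 14 and 13 peaks in the dexamethasone libraries and 10, 11 and 11 in the ethanol libraries, replicates 1 to 3 in each case. Every dexamethasone library lay above every ethanol library, although the lists as a whole were of like length, with 58360 to 60646 peaks with dexamethasone and 58281 to 61344 with ethanol. The means were 15.3 ± 3.21 and 10.7 ± 0.577 peaks (SD, n = 3 each), a difference of 4.67 peaks with an exact two-sided permutation p of 0.1, the smallest that 3 libraries against 3 allow. With equal replicate numbers paired, the paired exact p was 0.25, the smallest possible. Of 7443 windows of the same length with a peak in every library, 2.42% had all 3 dexamethasone libraries above all 3 ethanol libraries and 2.90% had the reverse. Of the 1709 windows with a mean of 10 to 19 peaks, the range of the libraries at FKBP5, the shares were 3.63% and 3.28%. A window of any level had a median of 6.33 peaks per library, and 82.7% had fewer than the mean of 13 at FKBP5. Without dexamethasone replicate 1, which had the most peaks, the difference was 2.83. A region can hold several peaks of the same library. Counted as regions, the window had 15, 13 and 11 with dexamethasone and 8, 8 and 10 with ethanol (exact permutation p = 0.1). The share of other windows was not taken for this count.

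The extra peaks lay mostly in the gene body. Separate summits of the same region count as separate peaks here, as at 126.8 kb in dexamethasone replicates 1 and 3 and ethanol replicate 2. Inside the gene there were 9, 6 and 6 peaks with dexamethasone and 3, 4 and 4 with ethanol, and the libraries of the treatments did not overlap (7 ± 1.73 and 3.67 ± 0.577, SD, n = 3 each, exact permutation p = 0.1). Of 11232 stretches as long as the gene with a peak in every library, 2.22% separated that way and 2.25% the reverse way. Outside it there were 10, 8 and 7 peaks with dexamethasone and 7 in each ethanol library (exact permutation p = 0.4), so there the treatments met at 7. The bases covered by peaks were 5426, 5602 and 4056 with dexamethasone and 3268, 3648 and 4422 with ethanol. Here the treatments overlapped, since ethanol replicate 3 exceeded dexamethasone replicate 3. The means were 5028 ± 846 and 3779 ± 588 bp (SD over 3 libraries each, exact two-sided permutation p = 0.2).

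**Figure D1:**
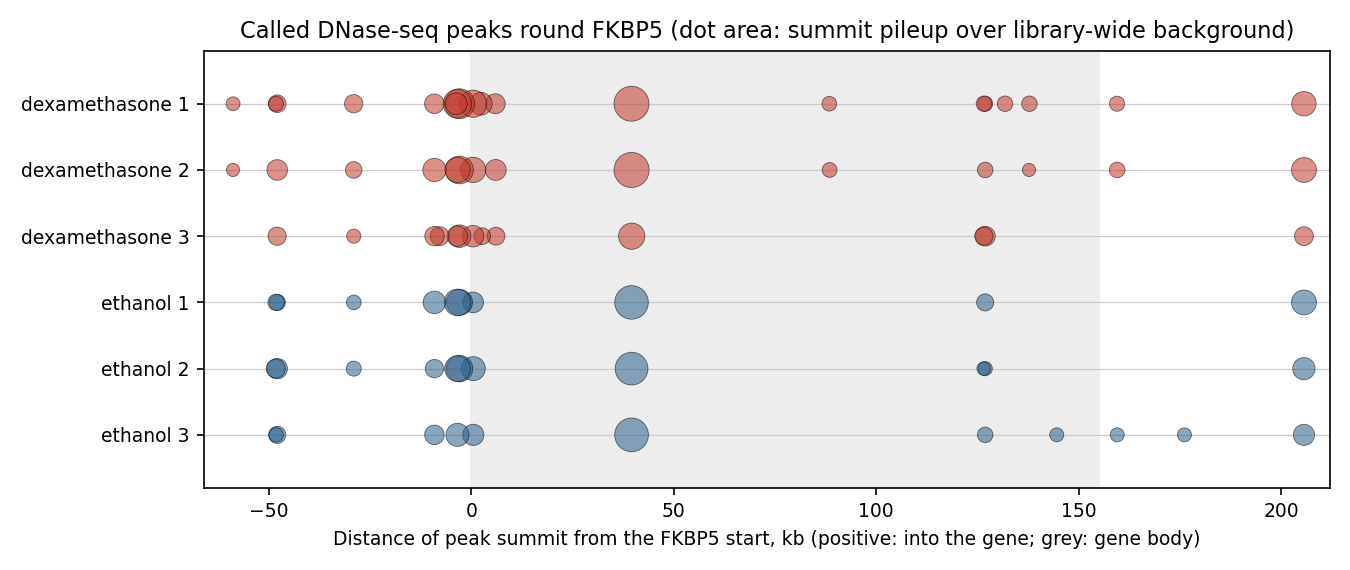
Called DNase-seq peaks round FKBP5 by library. The horizontal axis is the distance of each peak summit from the gene start in kb, positive into the gene, whose body is grey, and each row is a library. The area of a dot is the read pileup at the summit over the background of that library. The large dots at +39.6 kb and near the start recur in all 6 rows, while the dot at +6.0 kb is in the 3 dexamethasone rows only.

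Of the 19 regions, 10 had peaks in more libraries of dexamethasone than of ethanol, 2 in more ethanol libraries, and 7 in all 6. Over the genome the shares were 19.7%, 22.5% and 49.2%, so at FKBP5 the split leaned to dexamethasone while over all regions it leaned slightly to ethanol. Within the gene 6 of 10 regions were called in more dexamethasone libraries, 1 in more ethanol libraries and 3 in all 6. A single region was called in all 3 dexamethasone and no ethanol library, a pattern that 897 regions or 1.10% had. Another 3 were called in 2 dexamethasone libraries and no ethanol library, a pattern of 2.13% of regions. The rest with more dexamethasone calls were 4 regions seen in 1 library, 1 seen in 2 dexamethasone and 1 ethanol library, and 1 seen in all but ethanol replicate 3. Over all regions, 9.40% were called in 1 dexamethasone library alone, 2.62% in 2 dexamethasone and 1 ethanol library, and 3.18% in 3 and 2. A peak that was not called means that the signal stayed under the caller's threshold and not that the site was closed.

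Besides the calls, 3 measures of strength are used. The deposited fold enrichment is the authors' value for each peak, the reads at its summit over the caller's local background. From that fold and the deposited p-value of the same peak, the summit pileup (the extended reads stacked over the summit) and the local background (the reads in the 10 kb round it) were recovered, and pileups came out whole for 99.998% or more of the peaks of each library. The library-wide background, which follows depth, was 2.18 to 2.35 extended reads per base with dexamethasone and 2.31 to 2.38 with ethanol, so the libraries were of like depth on that scale. The total of reads is unknown. Intervals on a pileup are exact Poisson 95% intervals and cover counting error only.

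The region called with dexamethasone alone, chr6:35690181-35690612, lay 6.0 kb inside the gene. Its summit stood 5.94, 6.05 and 6.11 kb from the start in dexamethasone replicates 1 to 3, within 174 bp, and the peaks were 348, 367 and 370 bp wide. The summit pileup was 33 reads (22.7 to 46.3), 38 reads (26.9 to 52.2) and 29 reads (19.4 to 41.65). The intervals of the 3 libraries overlap, and the pileups amounted to 15.2, 16.8 and 12.4 times the background of each library. The nearest peak of any ethanol library began 4.78 kb away, at the gene start, so no weaker ethanol peak lay beside it. Signal in the ethanol libraries under their threshold is not in the lists, and no fold between the treatments can be given.

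That site was below the middle of its own lists by each measure and sat on a raised floor. Its fold was 3.70, 5.45 and 4.41 (4.52 ± 0.88, SD, n = 3) and its −log10 q was 8.46, 15.6 and 9.49, well clear of the lowest values of these lists, 2.51 to 2.71. By −log10 q it stood at the 14.8th, 39.997th and 21.3rd percentile of its own lists. By fold the percentiles were 4.45, 26.7 and 11.5, and by pileup 40.5, 48.7 and 35.1. The fold was low for that pileup because the 10 kb round the site held 410, 308 and 290 reads, more than at 80.05%, 65.3% and 67.9% of peaks. Among the 897 regions called with dexamethasone alone it ranked 217 by mean percentile of pileup, 428 by −log10 q and 709 by fold, so its place depended on the measure. It was thus neither among the strongest nor the weakest of them by pileup or −log10 q. By fold it was in their lower part, with a mean percentile of 14.2 beside their median of 27.5.

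Between it and the start, each of 2 dexamethasone libraries had one more peak, at different places. Dexamethasone replicate 1 had a peak of 43 reads 2.35 kb inside the gene (chr6:35693935-35694180), and replicate 3 one of 25 reads at 2.73 kb (chr6:35693561-35693799). Their folds were low, 3.74 and 3.13, with 538 and 365 reads in the surrounding 10 kb. A further peak of 32 reads was called 7.81 kb upstream of the start in dexamethasone replicate 3 alone (chr6:35704098-35704363, fold 4.26). No ethanol library had a peak at these 3 places. As single calls they have no second library behind them.

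**Figure D2:**
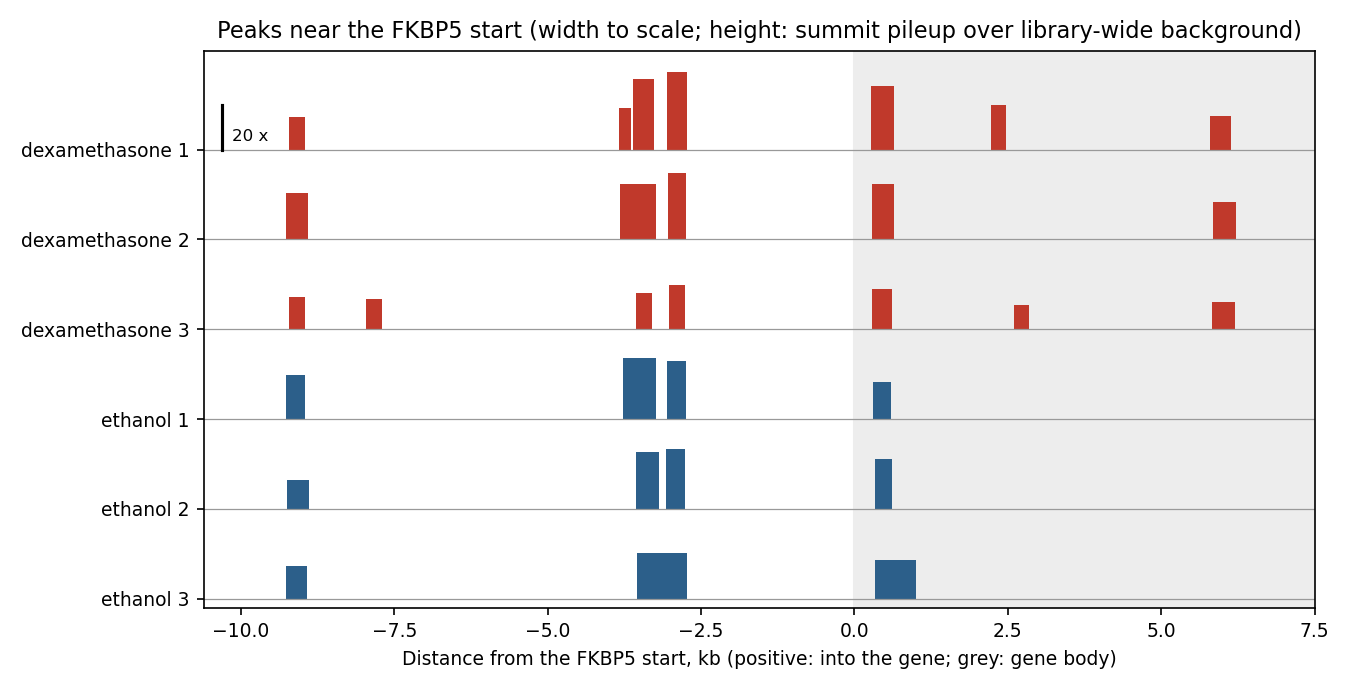
Peaks from 10 kb upstream of the FKBP5 start to 7.5 kb inside the gene, by library. The horizontal axis is the distance from the start in kb and grey marks the gene body. Each bar spans a peak to scale and its height is the summit pileup over the library's background, with a bar of 20 for scale. The peaks at about +6.0 kb appear in the dexamethasone rows and in no ethanol row, while those at +0.5, −2.9 to −3.4 and −9.1 kb appear in both.

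Farther out, the regions seen in dexamethasone replicates 1 and 2 alone were weak. At 137.8 kb inside the gene (chr6:35558397-35558806) the pileup was 20 and 15 reads with folds of 6.61 and 4.90. At 88.4 kb inside (chr6:35607800-35608099) it was 18 and 19 reads with folds of 5.98 and 6.13. At 58.9 kb upstream (chr6:35755147-35755410) it was 16 and 15 reads with folds of 4.05 and 3.67. None of the 3 was called in dexamethasone replicate 3. All 6 pileups were below that of each peak at 6.0 kb. Of the 4 folds inside the gene, 3 were above every fold at 6.0 kb, and the local background of these 4 peaks was at the library-wide level. The peak at 131.8 kb (chr6:35564456-35564737) was called in dexamethasone replicate 1 alone, with 20 reads.

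The regions that leaned to ethanol came from ethanol replicate 3 alone. It had peaks 144.6 kb inside the gene (chr6:35551713-35551921) and 176.1 kb from the start, beyond the gene end (chr6:35520175-35520394). Both had 18 reads and a fold of 5.61. The same library had one more peak of 18 reads at 159.5 kb (chr6:35536719-35537059), a region also called in dexamethasone replicates 1 and 2 with 19 to 21 reads. These 3 peaks stood at the 14.6th percentile of −log10 q in the list of ethanol replicate 3. In the upstream flank, the region 29.0 kb before the start (chr6:35725296-35725549) was missing from ethanol replicate 3 and had 28, 24 and 18 reads with dexamethasone and 19 and 20 with ethanol. Its treatments overlapped.

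The strongest site of the locus was open in both treatments. The region 39.6 kb inside the gene, chr6:35656391-35657190, had 102, 107 and 62 reads at its summit with dexamethasone and 100, 95 and 104 with ethanol. Dexamethasone replicate 3 stood below the other 5 libraries, which lay close together. Its folds were 13.9, 15.2 and 11.3 with dexamethasone (13.5 ± 1.98, SD, n = 3) and 14.9, 14.4 and 15.1 with ethanol (14.8 ± 0.346, SD, n = 3). The summits of the 6 libraries fell within 52 bp, 39.58 to 39.63 kb from the gene start in hg19. The 2 starts in the RefSeq table are 39.7 kb apart in GRCh38. No position was converted between the builds, and the distances are set side by side only. Whether this region holds the second start, the one rich in CG pairs, was therefore not tested. Its place inside the gene as drawn here does not mean that it lies away from a promoter.

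At the gene start used here, position 35696397, the peaks were modest and stood in a broad zone of cutting. Whether this is the only start in use in these cells was not tested, and FKBP5 has 2 starts in the RefSeq table. The region chr6:35695388-35696121, with summits 0.42 to 0.51 kb inside the gene, had 62, 56 and 42 reads with dexamethasone and 38, 51 and 41 with ethanol. Dexamethasone replicates 1 and 2 were the highest, and replicate 3 lay among the ethanol libraries. The folds were 4.14, 4.66 and 4.27 against 3.27, 4.78 and 4.35, which are low in every list. The 10 kb round the summit held 710, 562 and 453 reads with dexamethasone and 546, 494 and 433 with ethanol, more than at 85.8% to 96.8% of peaks of the same list. The start region was thus the lowest of the 7 shared regions by fold while its mean pileup in each treatment was above that of the regions at 126.8 kb, 9.1 kb upstream and 48.1 kb upstream.

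Just upstream, chr6:35699127-35700238 held a pair of summits. They stood about 2.9 and 3.4 kb before the start and were called separately in all libraries but ethanol replicate 3, whose single peak was 806 bp wide, and dexamethasone replicate 1 had a further summit at 3.70 kb. The strongest summit of each library had 75, 67 and 46 reads with dexamethasone and 63, 62 and 49 with ethanol. It was the summit at 3.4 kb in ethanol replicates 1 and 3 and that at 2.9 kb in the others. By it, dexamethasone replicates 1 and 2 were again the highest and replicate 3 the lowest, so the treatments overlapped. At 3.4 kb alone there were 68, 56 and 38 reads with dexamethasone and 63, 59 and 49 with ethanol, also with overlap. The next region, chr6:35705291-35705655, 9.1 kb upstream, had 32, 47 and 34 reads with dexamethasone and 45, 30 and 35 with ethanol, again with overlap.

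The other regions shared by all libraries lay far from the start. Beyond the gene end, 205.6 kb from the start (chr6:35490581-35490970), there were 50, 54 and 32 reads with dexamethasone and 55, 44 and 41 with ethanol. The lowest value was again that of dexamethasone replicate 3. At 48.1 kb upstream (chr6:35744158-35744856) the strongest summit of each library had 26, 37 and 30 reads with dexamethasone and 24, 37 and 27 with ethanol. A second summit 48.2 kb upstream was called in all 3 ethanol libraries and in dexamethasone replicate 1 alone. In ethanol replicate 1 it was the stronger, with 24 reads against 23 at 47.9 kb. At 126.8 kb inside the gene (chr6:35569236-35569989) the strongest summit of each library had 20, 21 and 35 reads with dexamethasone and 26, 18 and 22 with ethanol. Dexamethasone replicate 3, low at other sites, was the highest here. The second summit of this region, 126.6 kb inside, was called in dexamethasone replicates 1 and 3 and in ethanol replicate 2. In dexamethasone replicate 1 it was the stronger, with 20 reads against 19.

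**Figure D3:**
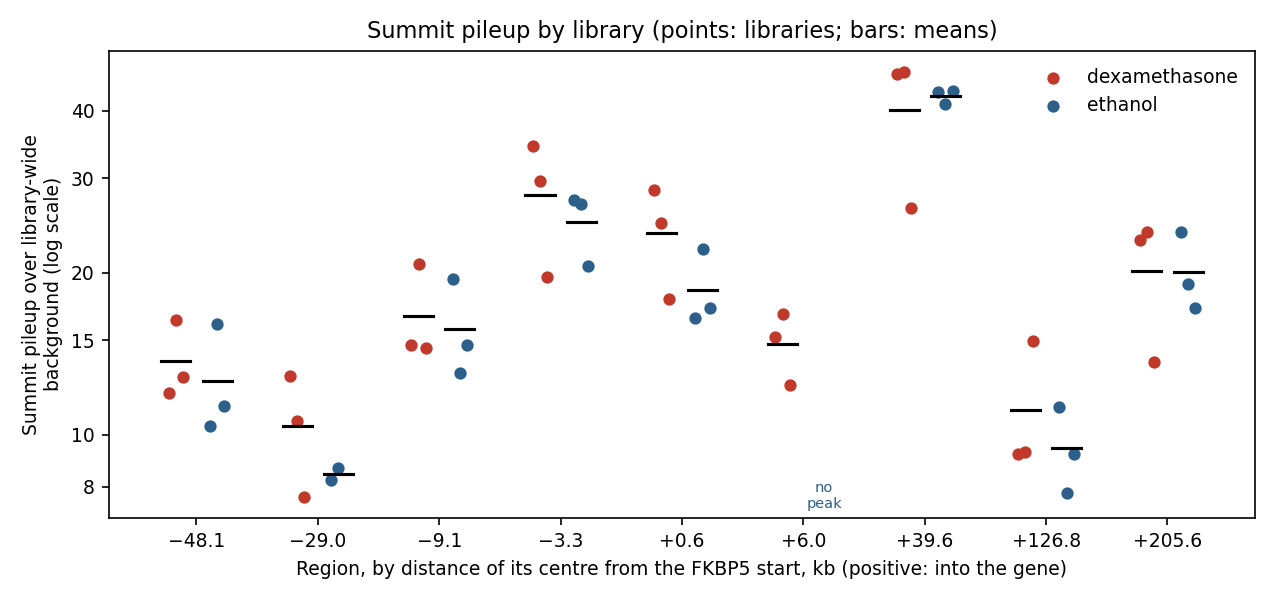
Summit pileup over the library-wide background, on a log scale, at the 9 FKBP5 regions called in 5 or more libraries or in all of one treatment. Regions are labelled by the distance of their centre from the gene start in kb, positive into the gene, points are libraries and bars are group means. Only at +6.0 kb does one treatment lack points altogether, and at the other regions the points of the treatments overlap.

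To compare the shared sites, each library's folds were ranked over the 39934 regions called in all 6 libraries. By mean percentile the order at FKBP5 was 89.0 for the region at 39.6 kb, 74.3 for that at 205.6 kb, 40.9 at 9.1 kb upstream, 24.9 at 48.1 kb upstream, 18.5 at 126.8 kb, 13.1 at 3.3 kb upstream and 3.15 at the start. Several neighbours in that order do not differ beyond their spread. The regions at 48.1 kb upstream and at 126.8 kb inside, for example, ranged over libraries from 16.95 to 37.3 and from 8.61 to 27.6. The site at 39.6 kb, with 78.4 to 93.6, was above the site beyond the gene end, with 57.98 to 88.7, in each of the 6 libraries.

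No shared region of FKBP5 passed the test of a change in rank with dexamethasone. Of the 7, 2 were higher and 5 lower, the median difference was −0.15 on the normal score scale (0.00 over all shared regions), and none passed limma at an adjusted p of 0.05. Over the genome 0.0225% passed. The lowest adjusted p was 0.744, at the site at 39.6 kb, whose percentiles were 87.6, 91.1 and 78.4 with dexamethasone and 93.6, 90.4 and 93.1 with ethanol (difference −0.34, SE 0.177). At the start the percentiles were 2.37, 4.48 and 3.35 against 0.259, 5.28 and 3.15 (difference 0.25, SE 0.322). At no shared region did the ranks of the treatments separate, where 6.20% of all shared regions had every dexamethasone library above every ethanol library and 5.92% the reverse.

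The recovered pileups gave a like result. Scaled to the library-wide background, they were higher with dexamethasone at 5 of 7 shared regions, with a median log2 difference of 0.13 (0.02 over all shared regions, of which 55.4% were higher). None passed limma, which called 0.285% of regions over the genome. With all libraries the largest difference was at the start, 0.34 on the log2 scale (SE 0.212). It was 0.19 without dexamethasone replicate 1 and 0.53 without replicate 3, and without dexamethasone replicate 1 or 2 or ethanol replicate 1 the region at 126.8 kb had a larger one (0.33 to 0.35). At 39.6 kb the difference was −0.14 (SE 0.19), and the limma adjusted p was 1.00 there and at the start.

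The reads in the 10 kb round each shared summit measure the wider zone. They include the reads of the site itself, so they are not separate from the pileup. They were higher with dexamethasone at 7 of 7 regions, with log2 differences from 0.01 to 0.38 and a median of 0.19. The windows of 10 kb at the start, 3.3 kb upstream and 9.1 kb upstream overlap, so the 7 values are not all separate. Over the genome the median was 0.01 and 56.3% of regions were higher. None of the 7 passed (limma adjusted p = 1.00), and 0.0364% of 35711 regions did. The largest was at 126.8 kb inside the gene, with 145, 142 and 238 reads with dexamethasone and 153, 132 and 120 with ethanol (0.38, SE 0.15). These reads are round each library's strongest summit, which in dexamethasone replicate 1 was the one at 126.6 kb. Dexamethasone replicate 3 stood above the rest, and without it the difference was 0.17.

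At the start and at 3.3 kb upstream the outcome turned on single dexamethasone libraries. With all of them, the differences were 0.26 (SE 0.163) and 0.19 (SE 0.157). Without dexamethasone replicate 1, which had the most reads at both, they were 0.063 and 0.0051, and without ethanol replicate 3, which had few, 0.15 and 0.098. Without dexamethasone replicate 3 they were 0.44 and 0.37, with limma adjusted p of 0.00419 and 0.02504, and 485 regions of the genome were then higher and 22 lower in place of 13 and 0. The windows of 10 kb at these 2 regions overlap, so they share reads and are not separate evidence. At the start dexamethasone replicate 3 had 453 reads, between the 433 and 546 of ethanol replicates 3 and 1. Its median summit pileup over the genome, 37 reads, was the lowest of the libraries, the others having 38 or 39, and its part in these results was not tested.

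**Figure D4:**
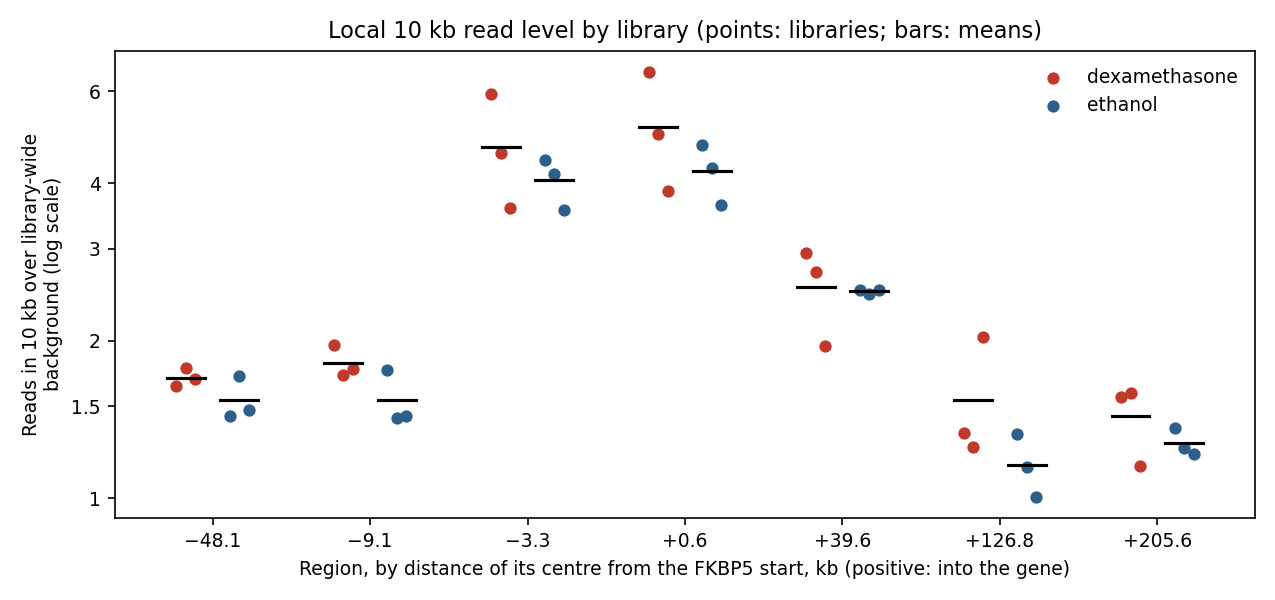
Reads in the 10 kb round the summit over the library-wide background, on a log scale, at the 7 FKBP5 regions called in all libraries. Regions are labelled by the distance of their centre from the gene start in kb, points are libraries and bars are group means. The bars are higher with dexamethasone at each region, and the points of the treatments overlap at every region. The bars are means before the log was taken, whereas the differences of 0.01 to 0.38 in the text are between mean log2 values.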

How the data were processed

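DNase-seq of A549 cells was deposited as 6 peak lists, 1 for each library, on hg19. The tools that the submitters' processing notes list, without settings, are MACS2 2.1.0, Bowtie, bedtools and CASAVA 1.3. Peaks had been called per library, as each list numbers its own peaks. The files have no header and follow the MACS2 layout. In that layout the deposited fold is a ratio over the caller's background, the deposited p-value and q-value are −log10 values, the deposited score follows −log10 q, and a last column holds the summit offset. The labels do not say whether libraries came from separate cultures, so p-values measure only the spread between these libraries, which may be technical.

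The members, lists and tests were chosen with earlier results of these data known. Peaks overlapping by 1 bp or more formed a region. Presence was compared without a test per region, and numbers per library by an exact two-sided permutation test. Shared regions were tested with limma 3.58.1 (R 4.3.3, trend, no replicate block) on normal scores of the within-library rank of the fold, with Benjamini-Hochberg adjustment over all shared regions, threshold 0.05. The planned rule named regions called in all libraries of one treatment and at most 1 of the other, shared regions that passed or did not overlap in rank, and the 5 shared regions with the highest mean rank. The other regions are given by their values after these were seen.

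Added after seeing the data: a fold of (pileup + 1)/(background + 1) and a Poisson p-value were solved for the summit pileup, to within 0.0001 of −log10 p, and for the local background, whose steps of 0.02 correspond to reads extended by 200 bp in 10 kb. This reading of the caller's formulas is judged from the values. Both were divided by the library-wide background, and their log2 tested with limma. Where the local background was at the library-wide level no 10 kb count could be had, which left 35711 of 39934 regions. The scripts (Python 3.11.15) were tested on simulated data. Motifs of the regions need hg19 sequence and were not analysed here. Promoter sequences are RefSeq's (GRCh38.p14), and both promoters of FKBP5 in that table were used.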

Additional observations from a re-analysis of the deposited data

How the results depend on the processing

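Depth is known only relative to other libraries, and calls depend on the caller's threshold. The difference in peaks per library was 4 at a −log10 q of at least 5 and 4.33 with lists of one length, and from 2.83 to 5.83 on leaving out each library. That in covered bases was 962 to 1735 bp.

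The split of 10 regions to dexamethasone and 2 to ethanol was 14 and 3 with summits within 100 bp joined, and from 8 to 10 and from 0 to 3 on leaving out each library, with 0 to ethanol without ethanol replicate 3. With the replicate block (at least 2 equally numbered pairs differing one way and none the other) it was 4 and 0. The labels do not say whether equal numbers pair the libraries. Deviations of equal numbers correlated at r of 0.171, 0.0956 and 0.115 over regions, and other pairs at −0.134 to 0.00876. Each library thus correlated best with its own number, and whether equal numbers share a batch was not tested. No shared region of FKBP5 passed limma with the replicate block. For peaks per library and for peaks inside the gene the paired exact p was 0.25, the smallest possible, and for covered bases it was 0.5.

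Regions whose ranks did not overlap, 0 in either direction, became 0 to 2 toward ethanol on leaving out each library. Without ethanol replicate 3 the region at 3.3 kb upstream falls into 2 parts, one of which is among those 2. Ranks of fewer libraries separate more readily, and the share over all shared regions is not given for these settings. No lean to ethanol is therefore read from these counts. Regions passing on 10 kb reads became 0 to 2, the 2 without dexamethasone replicate 3. Of 195 values of single regions under an alternative, 20 changed sign, and the cause was not tested. By rank of −log10 q the region at 126.8 kb was 0.13 and that at 3.3 kb upstream 0.068. Leaving out each library, rank differences ranged from −0.10 to 0.48 at the start, −0.15 to 0.027 at 3.3 kb upstream (its parts −0.044 and −0.45), −0.49 to 0.026 at 9.1 kb upstream and −0.092 to 0.22 at 48.1 kb upstream. Log2 pileup ranged from −0.16 to 0.24 at 205.6 kb, −0.036 to 0.37 at 3.3 kb upstream (its parts 0.038 and −0.19), 0.19 to 0.53 at the start, −0.086 to 0.25 at 9.1 kb upstream, −0.014 to 0.35 at 126.8 kb and −0.28 to 0.14 at 39.6 kb. Log2 10 kb reads at 39.6 kb ranged from −0.11 to 0.18, and were −0.017 when scaled by the median over shared regions.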
